A study of Mus musculus with 6 samples.

Results

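The genes of the mouse major histocompatibility complex (MHC) and of antigen presentation were followed in breast tumors grown from 4T1 cells. They were chosen by name: every row of the deposited gene table whose symbol starts with H2-, which gave 30 genes, plus B2m, Tap1, Tap2, Tapbp, Cd74, Ciita, Nlrc5 and Erap1. These 38 genes stood among 16763 in the table. The tumors came from male BALB/c mice, per the labels, and 4T1 is a mammary carcinoma line of that strain. The DMDD liposome group (3 libraries) was given DMDD carried in liposomes, lipid vesicles used to deliver compounds, and the model group (3 libraries) bore 4T1 tumors, with no treatment stated. Mice were allotted to the groups at random, per the design text. The labels do not spell DMDD out, and they give no dose, time or age. They also do not tie libraries to animals. The p-values therefore rest on the variation among these 6 libraries, part or all of which may be technical.

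MHC class I molecules carry peptides from the cytosol to the surface of nearly all cells, where CD8 T cells and NK cells read them. Each has a heavy chain, encoded by an H2 gene, and the shared light chain beta-2 microglobulin, encoded by B2m. MHC class II molecules pair an alpha and a beta chain, carry peptides from endosomes to CD4 T cells, and are made mainly by dendritic cells, macrophages and B cells. Other cells, many tumor cells among them, can make class II when interferon gamma induces Ciita. In a tumor, class I RNA can come from tumor and host cells alike, while class II RNA is mostly read as a sign of antigen-presenting cells. In bulk samples such as these, fewer cells of a type and less RNA per cell cannot be told apart.

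Class II and class I promoters share a module of X and Y boxes, through which Ciita acts on class II and Nlrc5 on class I, and class I promoters also carry NF-kB and interferon response elements. Promoter stretches are shown here because the class II genes varied together between libraries, and more widely than most class I genes. The stretches are from RefSeq promoters, build GRCm38.p6, of the C57BL/6J strain, and 29 of the 38 genes had one. They run 5′ to 3′ on the strand of the gene. In the class II stretches, capitals mark the Y box GATTGG, which NF-Y binds, and either the X box core, searched as AACNNATG, or in H2-Aa the element TGACGTCA in the X box region, where RFX and CREB proteins bind.
H2-Aa (chr17:34287855-34287909, minus strand): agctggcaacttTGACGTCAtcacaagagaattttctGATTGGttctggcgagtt
H2-Eb1 (chr17:34305766-34305824, plus strand): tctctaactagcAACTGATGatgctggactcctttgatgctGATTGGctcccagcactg
H2-DMb1 (chr17:34153087-34153146, plus strand): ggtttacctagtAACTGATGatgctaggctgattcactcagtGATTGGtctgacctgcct
H2-DMb2 (chr17:34145116-34145175, plus strand): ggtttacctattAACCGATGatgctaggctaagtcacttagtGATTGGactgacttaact
H2-Ob (chr17:34238808-34238864, plus strand): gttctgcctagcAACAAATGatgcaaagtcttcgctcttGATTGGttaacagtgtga

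In the class I stretches, capitals mark an NF-kB element, which is the first run of capitals in H2-K1 and H2-D1 and was searched with exactly those letters, and the interferon regulatory factor (IRF) element TTTCACTTC. The letters of the Y box, on the other strand, lie outside these stretches.
H2-K1 (chr17:34000417-34000470, minus strand): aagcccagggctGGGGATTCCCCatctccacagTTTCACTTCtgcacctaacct
H2-D1 (chr17:35262911-35262964, plus strand): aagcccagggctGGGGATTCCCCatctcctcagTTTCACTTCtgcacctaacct
H2-Q4 (chr17:35379452-35379484, plus strand): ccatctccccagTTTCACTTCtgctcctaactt

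An X box core followed on the same strand by a Y box at 10 to 30 bases stood in 5 of the 8 class II genes with a promoter (H2-Eb1, H2-Eb2, H2-DMb1, H2-DMb2 and H2-Ob), in 0 of the other 21 genes with one, and in 25 of all 32851 promoters (0.0761%). The Y box letters alone are common, in 21 of the 29 genes and in 16.1% of all promoters, and B2m, H2-K1, H2-D1, H2-Q4, H2-Q6, H2-Q7 and H2-T23 are among the class I genes that hold them. The NF-kB letters stood in 10 of all promoters (0.0304%), among them more than 1 promoter of H2-K1 and those of H2-D1 and H2-Q6. A gene can have more than 1 promoter, so counts of promoters and counts of genes are not alike. The IRF letters stood in 7 of the 29 genes, all of them class I, and in 0.505% of all promoters. TGACGTCA stood in 1 of the 29, H2-Aa, and in 1.79% of all promoters. Each motif was searched on both strands over 250 bases before to 50 after the start, no 2 of them overlap in the stretches shown, and the letters were chosen with these promoters in view. A match of letters describes the sequence and does not show binding.

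The libraries held 13037500 to 15616840 counts. CPM values below are counts relative to library size, scaled between libraries by TMM, and 3 counts in a library stood for 0.193 to 0.230 CPM, below which a level is mostly counting error. Levels of different genes are compared only in the deposited FPKM, a level scaled for gene length and library depth. Epithelial markers were present in every library, with all 10 listed genes detected and their CPM summing to 3784 to 4800 in DMDD liposome and 4174 to 6829 in model. Model replicate 2 held epidermal RNA, with a sum of 225 CPM over 8 skin keratinocyte genes against 5.36 to 6.94 in the other 5 libraries.

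Antigen presentation genes were among the most abundant RNAs of these tumors. B2m averaged 2757 ± 594 FPKM in DMDD liposome and 2557 ± 24.3 FPKM in model (SD, n = 3 each), and only 0.0477% of the table's genes had a mean FPKM at least as high. Over all 6 libraries the order of mean FPKM was B2m at 2657, H2-D1 at 1549, Cd74 at 1495, H2-K1 at 1313, H2-Aa at 676, H2-Eb1 at 638, H2-Ab1 at 623, H2-Q4 at 590 and H2-T23 at 367. In this order the lowest B2m library stood above the highest H2-D1 library, while each of the other neighbours had ranges over the 6 libraries that overlapped. Ciita, which drives class II transcription, was far lower at 8.03, and Nlrc5, its counterpart for class I, stood at 21.4. At the low end, H2-M2, H2-M9, H2-M5, H2-M10.2, H2-M11, H2-T3, H2-Ob and H2-Eb2 had means of 0.035 to 0.547.

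Between the groups no antigen presentation gene passed the test. Of the 38 genes 33 had enough counts, and edgeR's quasi-likelihood test with Benjamini-Hochberg adjustment over all genes called 0 of the 33, against 0 of 12891 genes in all (0%). The smallest adjusted p of the 33 was 0.626. At an unadjusted p under 0.05 there were 2, H2-M2 (lower) and H2-Ke6 (higher), beside 986 of all genes tested (7.65%, with 4.34% higher and 3.31% lower). For the same 2 genes all libraries of a group lay on one side of the other group, which held for 12.9% of all genes tested (7.21% with DMDD liposome higher and 5.67% with it lower). Of these 2, H2-M2 passed the count filter through its model libraries alone, so the shares over all genes are no like comparison for it. DESeq2 also called 0 of the 38, of which 2 had no adjusted p, against 59 of 14461 genes (0.408%). By DESeq2 2 of the 38 had an unadjusted p under 0.05, a count with no share over all genes beside it here. The authors' deposited table called 0 of the 38 at an adjusted p under 0.05, against 58 of 16763 (0.346%), with a smallest adjusted p of 0.277 among the 38.

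**Figure D1:**
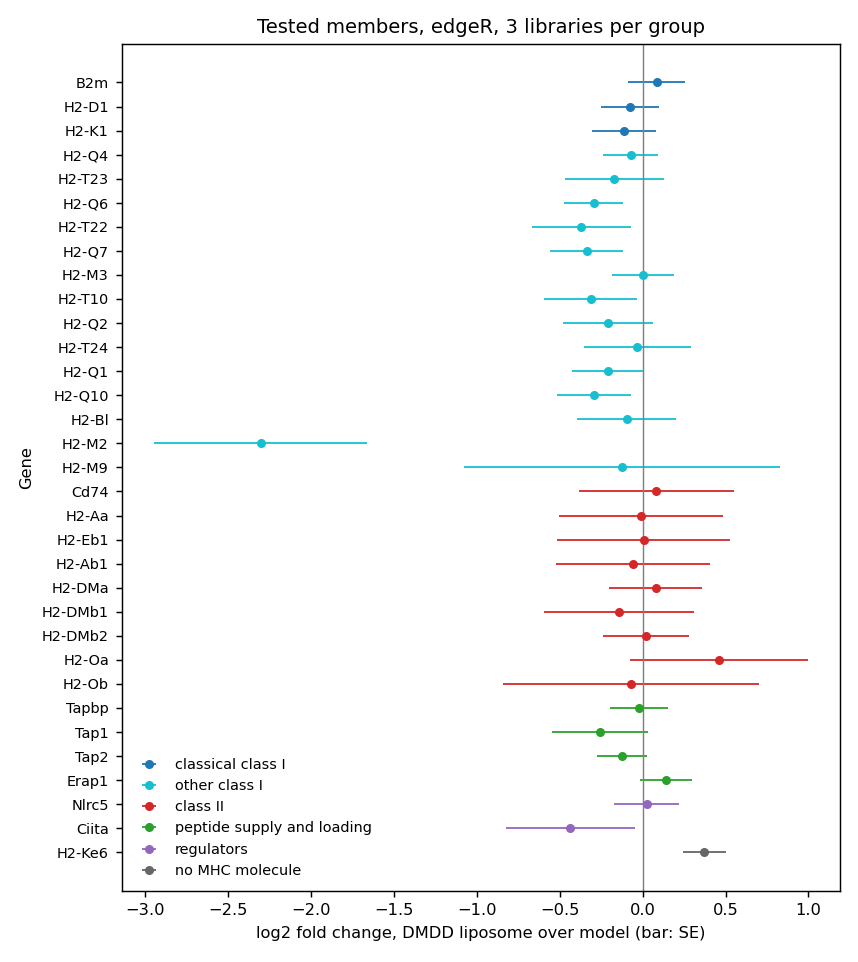
Log2 fold change of DMDD liposome over model (horizontal axis, bars are SE) for the 33 tested genes, grouped by role (colors), with 3 libraries per group. Most points lie within 0.5 of 0, H2-M2 stands apart at -2.30, and the class II genes have wide bars around 0.

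Of the class II genes and their chaperones, the main chains had log2 fold changes of -0.06 to 0.08, and they varied 4.40-fold to 5.68-fold among the DMDD liposome libraries but 1.05-fold to 1.22-fold among the model libraries. H2-Aa, the alpha chain of the I-A molecule, measured 920, 224 and 1137 CPM in DMDD liposome replicates 1 to 3, against 782, 731 and 785 CPM in the model replicates. DMDD liposome replicate 2 was thus the lowest of the 6 libraries, the other 2 DMDD liposome libraries were the highest, and the model libraries lay between them. The log2 fold change of H2-Aa was -0.01 ± 0.49 (SE, adjusted p = 0.997 by edgeR's quasi-likelihood test).

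H2-Eb1, the beta chain of the I-E molecule, followed the same order, with 906, 203 and 1154 CPM in DMDD liposome, against 767, 729 and 758 CPM in model. Its highest DMDD liposome library was 5.68-fold above the lowest, while the same ratio in model was 1.05. H2-Ab1, the beta chain of I-A, ran from 243 to 1088 CPM in DMDD liposome and from 669 to 818 CPM in model. Cd74, the invariant chain that blocks the peptide groove of class II until the endosome, had 2654, 709 and 3117 CPM in DMDD liposome, against 2302, 1894 and 1923 CPM in model. Cd74 stood at a log2 fold change of 0.08 ± 0.47, and again DMDD liposome replicate 2 was below and the other 2 DMDD liposome libraries above every model library.

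H2-DMa and H2-DMb1 form the molecule that exchanges peptides on class II in the endosome. H2-DMa measured 151, 74.4 and 178 CPM in DMDD liposome, against 124, 122 and 135 CPM in model. H2-DMb1 measured 91.7, 25.3 and 113 CPM in DMDD liposome, against 82.4, 83.1 and 88.5 CPM in model. H2-DMa thus varied 2.39-fold within DMDD liposome and H2-DMb1 4.46-fold, with 1.10-fold and 1.07-fold in model. H2-DMb2, a second beta chain gene, varied 2.13-fold within DMDD liposome and 1.16-fold within model. H2-DMb1 and H2-DMb2 share 27.2% and 25.2% of the 50-base windows of their transcripts, so the split of reads between them is uncertain.

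H2-Oa and H2-Ob, whose product restrains H2-DM and is known mainly from B cells, were scarce. H2-Oa had 31, 18 and 80 counts in DMDD liposome, against 20, 37 and 40 in model, at a log2 fold change of 0.46 ± 0.54. The groups of H2-Oa overlapped, and DMDD liposome replicate 3 was its highest library. H2-Ob had at most 22 counts in a library, and H2-Eb2, with 0 to 11 counts, was not tested.

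**Figure D2:**
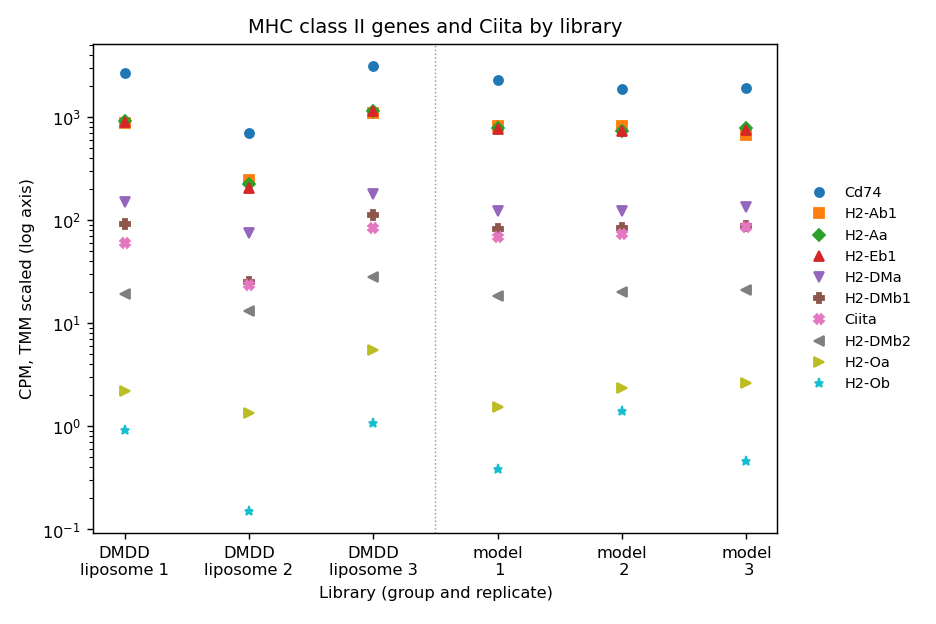
CPM on a log axis of 9 class II genes and Ciita in each of the 6 libraries, DMDD liposome left and model right of the dotted line. In DMDD liposome replicate 2 each gene is at its lowest, with H2-Aa at 224 CPM against 731 to 1137 CPM in the other libraries.

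In the 9 tested class II genes together, 5 had a positive and 4 a negative log2 fold change, with a median of 0.01 over the 9 and of 0.01 over all genes tested, and 0 of the 9 had an unadjusted p under 0.05. All 9 had their lowest value in DMDD liposome replicate 2, which was the lowest library for 17.2% of all genes tested. The median ratio of the highest to the lowest library was 4.46 in DMDD liposome and 1.16 in model for the 9 genes, against 1.24 and 1.33 over all genes tested. The SD of log2 CPM was larger in DMDD liposome than in model for all 9, against 39.7% of all genes tested. No test of this difference in spread was made.

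The mean of the class II genes rested on single DMDD liposome libraries, replicates 2 and 3. Replicate 2 was the lowest library for all 9 genes, so leaving it out raises the DMDD liposome mean of each. In the fit without it all 9 genes had a positive log2 fold change, with a median of 0.39. An unadjusted p under 0.05 was found for 4 of the 9, namely Cd74, H2-Aa, H2-Eb1 and H2-DMa. The share of all genes tested in that fit was 8.68% (4.7% higher and 3.98% lower). Because the library left out was their lowest, the 4 cannot serve as a test of the class II genes. None of the 9 passed after adjustment over all genes (adjusted p = 0.534 for Cd74 and H2-Aa by edgeR's quasi-likelihood test, with 0 of 13132 genes called in that fit). In that fit Cd74 stood at 0.49 ± 0.16 and H2-Aa at 0.42 ± 0.14. Without DMDD liposome replicate 3 all 9 were negative, with a median of -0.42, and 0 of the 9 had an unadjusted p under 0.05.

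Ciita, the transactivator that class II genes need, varied in the same order. Ciita measured 60.7, 23.6 and 83.8 CPM in DMDD liposome, against 68.9, 73.4 and 85.6 CPM in model. DMDD liposome replicate 2 was its lowest library by a wide margin, but unlike the class II chains its other DMDD liposome libraries stood within or below the model range. The log2 fold change was -0.44 ± 0.39 (edgeR adjusted p = 0.811), and -0.08 ± 0.18 without DMDD liposome replicate 2. The factors that bind the class II promoter with Ciita varied less between libraries: over 6 tested genes, among them Creb1 at 0.14 ± 0.11, Nfyc at -0.10 ± 0.15 and Rfxank at -0.13 ± 0.20, the highest DMDD liposome library was at the median 1.23-fold above the lowest, and 1.32-fold in model.

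**Figure D3:**
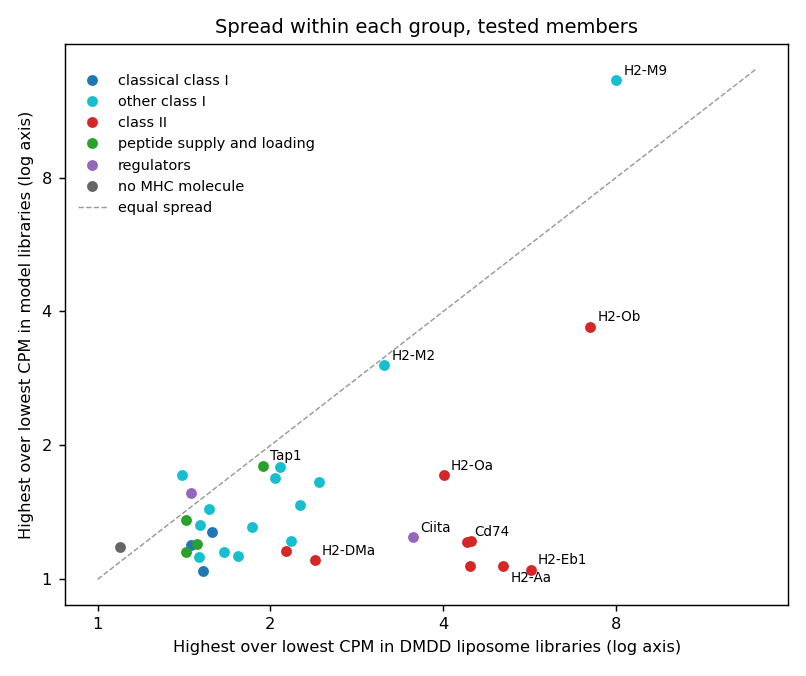
Ratio of the highest to the lowest CPM within the DMDD liposome libraries (horizontal, log axis) and within the model libraries (vertical, log axis) for the 33 tested genes, colored by role. Most class II genes and Ciita lie far right and low, with H2-Eb1 at 5.68 in DMDD liposome and 1.05 in model, while H2-D1 lies at 1.46 and 1.19.

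The classical class I genes and B2m had log2 fold changes between -0.11 and 0.09. H2-K1, which encodes the K heavy chain, measured 2068, 1604 and 2538 CPM in DMDD liposome, against 1997, 2167 and 2551 CPM in model. H2-D1, which encodes the D heavy chain, measured 3195, 2569 and 3738 CPM in DMDD liposome, against 3070, 3301 and 3660 CPM in model. For both, DMDD liposome replicate 2 was lowest and the groups overlapped, and the log2 fold changes were -0.11 ± 0.19 and -0.08 ± 0.17. B2m measured 2389, 1847 and 2815 CPM in DMDD liposome, against 2207, 2169 and 2268 CPM in model, at 0.09 ± 0.17. DMDD liposome replicate 2 was again lowest, and B2m varied 1.52-fold within DMDD liposome, against 4.40-fold for Cd74.

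Among the other class I heavy chains, 13 of the 14 tested genes had a negative log2 fold change and H2-M3, which presents formylated peptides, stood at 0.00 ± 0.19. The Qa-2 family genes H2-Q6 and H2-Q7 stood at -0.30 ± 0.18 and -0.34 ± 0.22, with edgeR adjusted p = 0.722 and 0.749. H2-Q6 measured 301, 220 and 333 CPM in DMDD liposome, against 297, 358 and 394 CPM in model. H2-Q7 measured 124, 88.3 and 164 CPM in DMDD liposome, against 134, 164 and 176 CPM in model. In both genes the groups overlapped and model replicate 3 was highest.

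H2-Q4 was the most abundant of this group, with 1073, 806 and 1211 CPM in DMDD liposome, against 1097, 1016 and 1137 CPM in model, at -0.07 ± 0.17. H2-T23 encodes Qa-1, the ligand of the NK cell receptor formed by Klrd1 and Klrc1. H2-T23 measured 448, 332 and 748 CPM in DMDD liposome, against 482, 528 and 709 CPM in model, at -0.17 ± 0.30. Replicate 3 was the highest library of H2-T23 in each group, and the groups overlapped. H2-T22 and H2-T10, which some gamma delta T cells recognize, stood at -0.37 ± 0.30 and -0.31 ± 0.28.

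The remaining tested genes of this group, H2-Q1, H2-Q2, H2-Q10, H2-T24, H2-Bl and H2-M9, lay between -0.29 and -0.03 on the log2 scale. H2-M9 had only 1 to 15 counts per library. H2-M5, H2-M10.2, H2-M11 and H2-T3, which encodes the TL antigen, were not tested, with 0 to 12, 0 to 7, 0 to 3 and 0 to 3 counts per library.

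H2-M2, a class I gene of the M region, was the one MHC gene whose groups did not overlap. H2-M2 had 3, 2 and 7 counts in DMDD liposome, against 10, 36 and 18 in model, and each DMDD liposome library was below each model library. Its log2 fold change was -2.30 ± 0.64 (unadjusted p = 0.00786, adjusted p = 0.626 by edgeR). The ratio of the summed counts, scaled for depth, was 0.195, with a 95% exact binomial interval of 0.0959 to 0.365 that covers counting error only. H2-M2 passed the count filter through its model libraries alone, so that a gene this low could be tested only if it was higher in 1 group. Model replicate 2, its highest library, is the one with epidermal RNA. Without that library the log2 fold change of H2-M2 was -1.76 (adjusted p = 0.836 by edgeR). The other model libraries, at 10 and 18 counts, still lay above every DMDD liposome library. The part of epidermal RNA in the H2-M2 values was not tested.

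**Figure D4:**
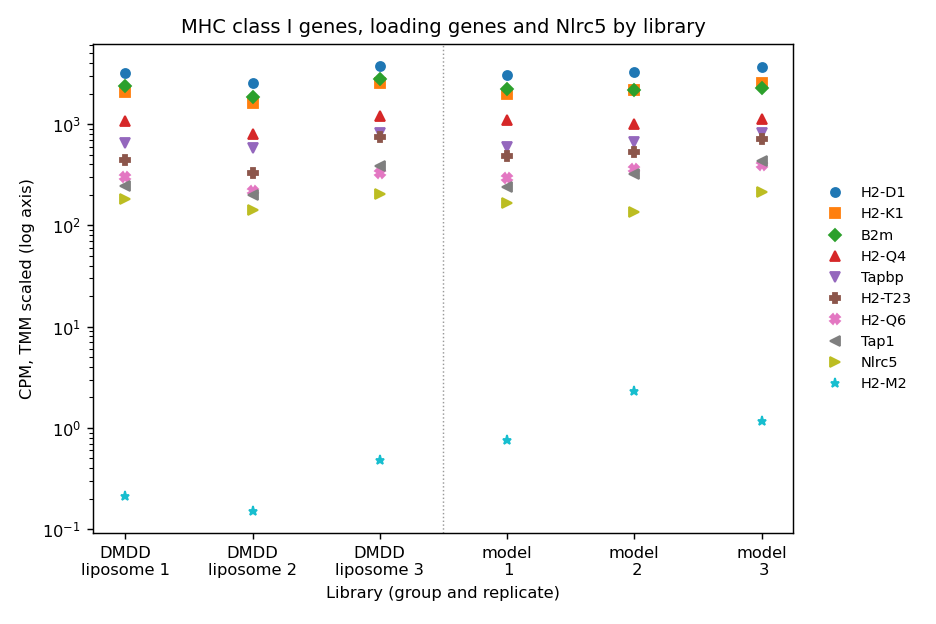
CPM on a log axis of 7 class I and loading genes of high level, Nlrc5, Tap1 and H2-M2 in each of the 6 libraries, DMDD liposome left and model right of the dotted line. H2-D1 stays between 2569 and 3738 CPM in all libraries, and H2-M2 lies at 0.151 to 0.477 CPM in DMDD liposome and 0.766 to 2.32 CPM in model.

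Over the 17 tested class I genes including B2m, 15 had a negative log2 fold change, with a median of -0.17, beside a median of 0.01 over all genes tested, of which 6288 of 12891 were negative. Many of these genes share sequence, so their values are not all independent. In the C57BL/6J transcripts of GENCODE M21, 44.6% of the 50-base windows of H2-T22 and 41.9% of those of H2-T10 occur in another H2 gene, as do 31.5% for H2-Q7, 27.0% for H2-Q6 and 8.79% for H2-K1. The shares were 0.576% for H2-M3, 0.6% for H2-M2, 1.27% for H2-T24 and 0% for H2-Bl, H2-M9, B2m, H2-Aa, H2-Ab1 and H2-Eb1. BALB/c mice moreover carry the d haplotype of this complex while the mouse reference genome carries the b haplotype, so reads of BALB/c alleles may be lost or assigned to a neighbouring gene, and H2-L and H2-Ea, which BALB/c mice express, were not analysed here. Without DMDD liposome replicate 2 the median of the 17 was -0.03 and 8 of the 17 were positive. Without model replicate 3 the median was -0.07, and without model replicate 2 it was -0.26. Without DMDD liposome replicate 3 the median was -0.42 and 1 of the 17 was positive. Epithelial tumor cell markers leaned the same way, with 8 of 10 negative, a median of -0.59, 4 at an unadjusted p under 0.05 and lower, against 3.31% of all genes tested, and Cldn7 at -1.24 ± 0.31. Their part in the class I values was not tested.

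The genes that supply and load class I peptides had overlapping groups throughout. Tap1 and Tap2 encode the subunits of the transporter that moves peptides into the endoplasmic reticulum. Tap1 measured 248, 199 and 387 CPM in DMDD liposome, against 242, 320 and 435 CPM in model, at -0.26 ± 0.29. Tap2 measured 126, 121 and 172 CPM in DMDD liposome, against 141, 154 and 162 CPM in model, at -0.12 ± 0.15. The groups of both genes overlapped, and the third replicate was the highest library in each group.

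Tapbp encodes tapasin, which holds the empty class I molecule to the transporter. Tapbp measured 645, 577 and 822 CPM in DMDD liposome, against 598, 666 and 810 CPM in model, at -0.02 ± 0.18. Erap1 encodes the peptidase that trims peptides to length, and it measured 144, 116 and 173 CPM in DMDD liposome, against 133, 118 and 142 CPM in model, at 0.14 ± 0.16. Nlrc5, the transactivator of class I genes, measured 180, 141 and 205 CPM in DMDD liposome, against 167, 137 and 214 CPM in model. Its log2 fold change was 0.02 ± 0.20, and model replicate 2 was its lowest library, while DMDD liposome replicate 2 was the lowest of its own group.

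H2-Ke6 carries the H2- prefix by its place in the complex but encodes no MHC molecule: its product is a hydroxysteroid dehydrogenase, also named Hsd17b8. H2-Ke6 measured 24.3, 26.6 and 24.4 CPM in DMDD liposome, against 20.6, 17.4 and 20.2 CPM in model. All 3 DMDD liposome libraries were above all 3 model libraries, and the log2 fold change was 0.37 ± 0.13 (unadjusted p = 0.0227, adjusted p = 0.626 by edgeR).

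The antigen processing genes outside the named set did not pass the test either, with 0 called in each of the 9 lists described here. Of the immunoproteasome and activator genes, which cut and open the proteasome for class I peptides, 5 of 5 were tested, 3 positive and 2 negative, with Psme2 at 0.14 ± 0.11, Psmb9 at -0.23 ± 0.26 and Psmb8 at -0.13 ± 0.16. Of the 6 folding and loading chaperones 3 were positive and 3 negative, with Hspa5 at 0.29 ± 0.13, Uggt1 at -0.27 ± 0.16 and Pdia3 at 0.12 ± 0.11. Of 7 tested genes that process antigen in the endosome, 5 were positive, and 3 had an unadjusted p under 0.05, against 4.34% of all genes tested in that direction. All 3 libraries of DMDD liposome lay above model for 2 of the 7, against 7.21% of all genes tested. The 3 genes were Ctsd at 0.45 ± 0.15, Ctss, the protease that degrades the invariant chain, at 0.58 ± 0.22, and March1, which marks class II for turnover, at 0.42 ± 0.17. Ctss measured 662, 434 and 756 CPM in DMDD liposome, against 463, 434 and 341 CPM in model, so its lowest DMDD liposome value lay among the model values. Macrophage and monocyte markers leaned the same way, with 10 of 12 positive, a median of 0.42 and Lyz2 at 0.99 ± 0.39 with no overlap between the groups. Their part in these values was not tested.

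The MHC-like genes outside the H2 complex were all positive, 8 of 8 tested, with a median of 0.26, beside 6600 positive of all 12891 genes tested. Cd1d1, which presents lipids to NKT cells, measured 27.6, 27.3 and 29.7 CPM in DMDD liposome, against 21.0, 15.8 and 17.2 CPM in model. All 3 DMDD liposome libraries of Cd1d1 were above the model libraries, at 0.65 ± 0.15 (unadjusted p = 0.00250, adjusted p = 0.626 by edgeR), and DMDD liposome replicate 2 did not stand apart. Such a lack of overlap held for 1 of the 8, against 7.21% of all genes tested. An unadjusted p under 0.05 in that direction also held for 1 of the 8, against 4.34%. Fcgrt and Hfe stood at 0.28 ± 0.17 and 0.19 ± 0.12.

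Interferon gamma is the main inducer of class II through Ciita and of Nlrc5. Of 10 genes of its signalling, 5 were positive and 5 negative, and Ifngr1, a receptor chain, stood at 0.47 ± 0.13 with 1 of the 10 at an unadjusted p under 0.05, a share near the 7.65% of all genes tested. Ifng itself had 1.27, 1.59 and 1.70 CPM in DMDD liposome, against 0.460, 0.708 and 1.44 CPM in model. With only 6 to 25 counts per library, Ifng was not at its lowest in DMDD liposome replicate 2. Yet 5 of the 10 genes were at their lowest there, Jak2 among them, against 17.2% of all genes tested. Jak2 stood at -0.40 ± 0.29. Of 15 interferon induced GTPases and chemokines, with Cxcl10 at -0.31 ± 0.30, Ido1 at -1.09 ± 1.13 and Gbp7 at 0.19 ± 0.20, 12 had their lowest value in DMDD liposome replicate 2. Of 13 type I interferon targets, 12 were positive, with Rsad2 at 0.37 ± 0.28, Mx2 at 0.38 ± 0.36 and Oasl2 at 0.30 ± 0.32, and all 13 had their lowest value in that library. The median ratio of highest to lowest DMDD liposome library was 2.60 for these 13 genes, less than the 4.46 of the class II genes, and 1.37 in model.

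The summed T cell and NK cell markers were lowest in DMDD liposome replicate 2, as the class II genes were, but the T cell sum was highest in replicate 1. T cell markers, 7 of 8 listed genes in the table, summed to 55.9, 15.1 and 42.6 CPM in DMDD liposome and to 21.2 to 27.6 CPM in model. NK cell and cytotoxic markers, 8 of 8, summed to 78.9, 43.1 and 139 CPM in DMDD liposome and to 44.4 to 79.1 CPM in model. Gzmb was the largest part of that sum in DMDD liposome, at 33.7, 16.6 and 69.2 CPM. Of the 7 tested NK cell markers, 3 were lowest of the DMDD liposome group in replicate 1. Of 9 tested T cell and NK cell receptors of MHC, 7 were positive, with Klrc1 at 1.52 ± 0.46, Klrd1 at 1.01 ± 0.44 and Cd8b1 at 1.16 ± 0.52. Klrc1 measured 6.65, 2.26 and 4.22 CPM in DMDD liposome, against 1.30, 1.22 and 2.03 CPM in model, with an unadjusted p of 0.0118 (adjusted p = 0.626 by edgeR). DMDD liposome replicate 2 was the lowest of its group for 6 of 6 tested T cell markers and 4 of 7 NK cell markers, against 37.8% of all genes tested, and the lowest of all 6 libraries for 5 and 3 of them.

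By the same counts, that library was the lowest of its group for 8 of 12 macrophage and 6 of 8 dendritic cell markers, and the lowest of all 6 libraries for 0 of 12 and 2 of 8. For the class II genes both counts were 9 of 9. Macrophage and monocyte markers, 12 of 13 listed, summed to 3955, 2853 and 3182 CPM in DMDD liposome and to 1371 to 2846 CPM in model, so DMDD liposome replicate 2, the lowest of its group, lay level with the highest model library. Conventional dendritic cell markers, 9 of 9, summed to 439, 504 and 427 CPM in DMDD liposome and to 365 to 495 CPM in model. That sum is mostly Fscn1, and 2 markers of cross-presenting dendritic cells differed from it. Xcr1 had 47, 5 and 42 counts in DMDD liposome, against 27, 12 and 14 in model. Clec9a had 50, 16 and 36, against 14, 13 and 8. In DMDD liposome replicate 2 Clec9a, at 1.21 CPM, lay above every model library (0.525 to 1.07 CPM), unlike the class II genes. The other tested markers varied less within DMDD liposome. There Itgax measured 40.2, 47.2 and 48.1 CPM, Zbtb46 10.6, 10.4 and 13.3 and Ccr7 3.40, 3.40 and 3.81. Batf3 measured 3.82, 2.94 and 5.99 CPM and Flt3 2.26, 1.13 and 1.91 CPM. The mean over the 8 tested dendritic cell markers, on a log2 scale centred on the 6 libraries, was 0.29, -0.34 and 0.33 in DMDD liposome and -0.18 to 0.00 in model, beside 0.30, -1.25 and 0.71 and -0.02 to 0.19 for class II. B cell markers were near 0, with 8 of 8 genes in the table, a sum of 1.28 to 1.98 CPM in DMDD liposome and 1.15 to 1.74 CPM in model, and Ms4a1 at 0 to 2 counts in every library.

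Fibroblast markers, 8 of 8, ran the other way, at 4468, 10890 and 3999 CPM in DMDD liposome and 4145 to 7554 CPM in model. Fat cell markers, 8 of 8, summed to 42.9, 110 and 11.7 CPM in DMDD liposome and to 11.6 to 20.7 CPM in model. Skeletal muscle markers, 7 of 8, summed to 113, 10.9 and 247 CPM in DMDD liposome, the order of the class II genes, and to 31.0 to 32.6 CPM in model. Neutrophil markers, 8 of 8, summed to 486 to 779 CPM in DMDD liposome and 446 to 584 CPM in model. Mmp9 was the largest part of that sum, at 361 to 603 CPM in DMDD liposome and 202 to 389 CPM in model. Of the 7 tested neutrophil markers 2 were positive and 5 negative, with a median of -0.63. By edgeR 2 of the 7 had an unadjusted p under 0.05, both lower, against 3.31% of all genes tested. The groups did not overlap for 1 of the 7, S100a9 at -0.93 ± 0.23, against 5.67% of all genes tested in that direction. Endothelial markers, 8 of 8, summed to 260 to 375 CPM in DMDD liposome and 174 to 323 CPM in model. The part of these cell types in the class II values was not tested.

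**Figure D5:**
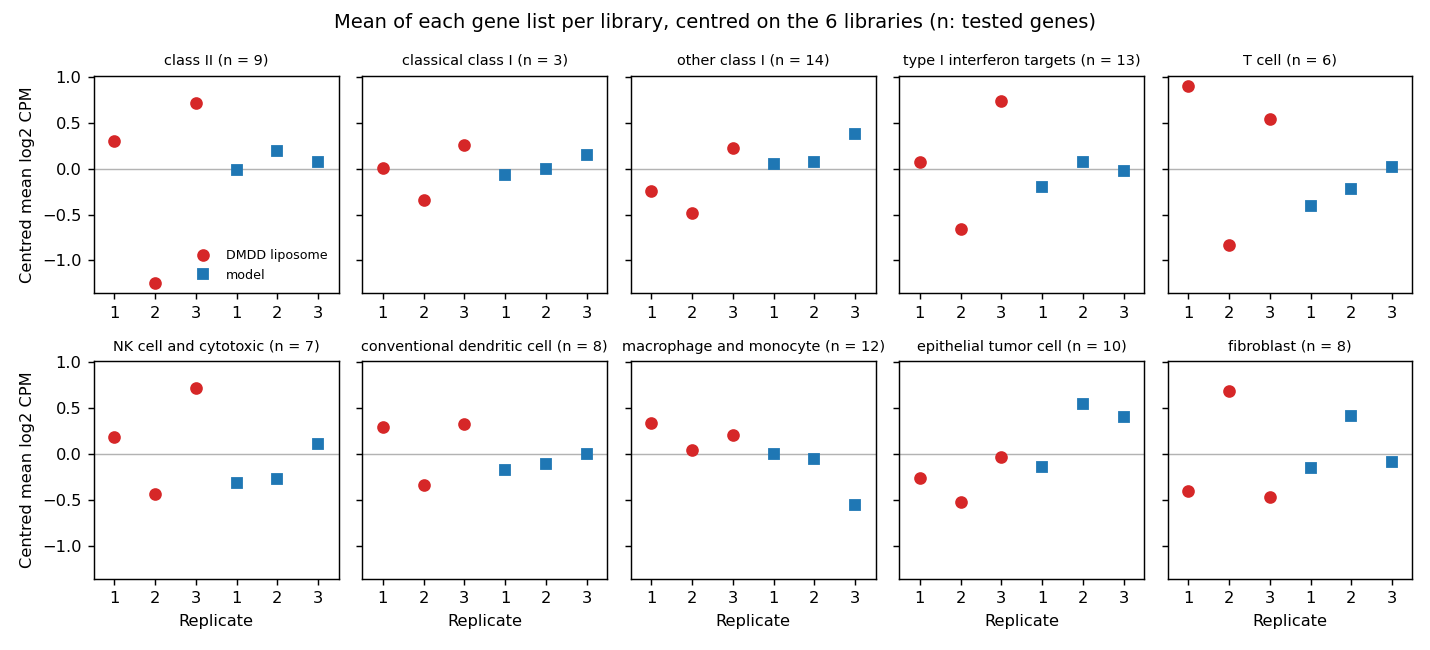
Mean log2 CPM of 10 gene lists in each library, centred on the 6 libraries (vertical axis), against replicate number, with DMDD liposome as circles at left and model as squares at right in each panel. The class II genes range from -1.25 to 0.71, both in DMDD liposome, the T cell and type I interferon lists also have their lowest value in DMDD liposome replicate 2, and the macrophage list has its lowest in model replicate 3.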

How the data were processed

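One deposited table held 16763 genes for 6 tumor libraries. The authors deposited read counts per gene (whole numbers, per the file headers), a normalized signal (counts over a size factor per library), FPKM, log2 fold changes as model over DMDD liposome (opposite to the direction used here), and p-values with adjusted p-values. DESeq2 and build mm9 are named in the submitters' processing notes; neither aligner, counter, annotation nor strandedness is given in the sources used here. Groups and replicate numbers came from the sample descriptions, which call the animals rats although organism, strain and symbols are of mouse.

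The deposited counts entered edgeR 4.0.16 under R 4.3.3 (quasi-likelihood test, two-sided, TMM, filterByExpr with a minimum count of 10 and total of 15, Benjamini-Hochberg over the 12891 genes tested, threshold 0.05). SE came from the F statistic, and log2 CPM used a prior count of 2. Alternatives were DESeq2 1.42.0, limma 3.58.1 voom with sample weights, DESeq2 size factors, no filter, a replicate block and each library left out. The genes, lists and tests were chosen with earlier results of these data known. Full values are given for the 8 genes named by symbol and, in each role, for the 3 tested genes with the highest mean FPKM and the 3 with the smallest p, and in each list up to 3 genes with the smallest p are named. The range of H2-Ab1, the counts of Xcr1 and Ms4a1 and the levels of Flt3, Zbtb46, Batf3 and Ccr7 were added after their values were seen. All 38 symbols matched a mouse gene name table.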

Additional observations from a re-analysis of the deposited data

How the results depend on the processing

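No antigen presentation gene was called under any of the 11 alternatives run, and the smallest adjusted p of any of the 38 was 0.11. DESeq2 called 59 genes over the whole table in place of 0, and leaving out a library gave 0 to 112, the 112 without model replicate 1. Signs of log2 fold changes near 0 were not stable. H2-Eb1 went to -0.0072 with no filter on low counts and to -0.00038 in DESeq2, and H2-Aa to 0.0452 in limma-voom. With the replicate number as a block, Cd74 stood at -0.16, H2-Eb1 at -0.30 and H2-DMa at -0.0079. The block called 0 genes. The labels do not state that same-numbered libraries of the 2 groups are paired. Correlations of their deviations were 0.088, 0.114 and 0.121, beside -0.164 to 0.032 for libraries of different number. Whether same-numbered libraries share a source was not tested. Of the 21 genes given in full, 14 changed sign when a library was left out: the ranges were -0.0649 to 0.23 for B2m, -0.22 to 0.0455 for H2-D1, -0.29 to 0.0347 for H2-K1, -0.21 to 0.0697 for H2-Q4, -0.56 to 0.0555 for H2-T23, -0.28 to 0.49 for Cd74, -0.42 to 0.42 for H2-Aa, -0.44 to 0.45 for H2-Eb1, -0.18 to 0.36 for H2-DMa, -0.53 to 0.27 for H2-DMb1, -0.30 to 0.80 for H2-Oa, -0.18 to 0.10 for Tapbp, -0.0076 to 0.27 for Erap1 and -0.12 to 0.20 for Nlrc5. H2-M2 (-2.91 to -1.76), H2-Ke6 (0.29 to 0.42) and Ciita (-0.85 to -0.08) kept their sign in those 6 fits. The median over the 33 tested genes ran from -0.41 to 0.07, of class II from -0.42 to 0.39 and of class I from -0.42 to -0.03. The cause was not tested. With 3 libraries per group and at most 36 counts in a library for H2-M2, H2-Ob and H2-M9, depth limits those values.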
